A study of Homo sapiens with 8 samples.

Results

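The 3 untreated libraries of Caco-2, a human colorectal carcinoma line used as a model of the intestinal epithelium, are described here by expression level across genes. They were chosen by their sample labels and make up 3 of the 8 samples of the series, and no column of a treated library was used here. The series concerns vesicles released by macrophages (exosomes): the remaining samples are 2 small RNA libraries of exosomes and 3 libraries of Caco-2 cells given exosomes called M2-exo. Untreated cells were grown in DMEM with 18% fetal bovine serum and received PBS, and their labels give the genotype as wild type and the cell type as stem cells. The sources used here do not give days in culture, confluence or whether the 3 libraries came from separate cultures, so the spread between them may be technical.

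Caco-2 came from a colonic tumour, yet the line is known for turning into a polarised layer with a brush border and small-intestinal enzymes when it is kept after confluence. An absorptive enterocyte carries digestive enzymes and transporters on microvilli built from actin bundlers such as villin, and it packages dietary fat on apolipoprotein B. HNF4A and the FOXA factors, which are shared by gut and liver, drive many genes of both organs, and the line is known to make several plasma proteins of the liver type. Secretory cells of the gut, by contrast, are goblet, Paneth, enteroendocrine and tuft cells.

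Depth was similar in the 3 libraries, with 15608937, 17462784 and 18324599 gene counts in untreated 1, 2 and 3. Levels are given as FPKM, fragment counts divided by gene length and a library constant near the library's total count. Sets of 3 values follow the order untreated 1, 2 and 3. The deposited data give 1 length per gene, such as 6881 bases for KRT8, and the transcripts expressed may be shorter. Comparison between genes, ranks included, depends on these lengths. A gene is called detected here at an FPKM of at least 1 in all 3 libraries and silent at 0 counts in all 3; over all 3 libraries, 0 counts allow a level of up to 0.0584 CPM (counts scaled to library size), a limit that covers counting error only. Of 19951 protein-coding genes, 9986 were detected (50.1%) and 4304 were silent (21.6%), and the median level was 1.35 FPKM. Untreated 1 stood farthest from the others: of 10889 genes, 1410 (12.9%) were at least 2-fold apart between untreated 3 and untreated 1 and 553 (5.08%) between untreated 2 and untreated 1, against 255 (2.34%) between untreated 3 and untreated 2. Without untreated 1, 10277 genes were detected and 4584 were silent. The counts were 10032 and 4686 without untreated 2, and 10118 and 4747 without untreated 3. Both rules ask for all libraries, so leaving 1 out cannot lower either count, here or in the lists below. The 3 libraries belong to a single group with nothing to compare it with, so no comparison was tested, and a difference between neighbouring levels is stated only where the 3 values of each do not overlap.

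The 7 markers given for the line were all detected. KRT8 and KRT18, the keratin pair of simple epithelia, stood highest: KRT8 had 569, 641 and 947 FPKM (719 ± 201, SD, n = 3), and KRT18 had 542, 469.7 and 557 (523 ± 46.8, SD, n = 3). These 2 genes rank 11 and 21 among nuclear protein-coding genes by mean FPKM, and their spans overlap at one edge on opposite strands of chromosome 12 (KRT8 at 52897187 to 52949954 and KRT18 at 52948871 to 52952901, GRCh38). CDH1, which encodes E-cadherin of the adherens junction, was the steadiest of the 7 at 175, 179 and 174 FPKM. VIL1, the gene of villin, had 74.6, 79.99 and 98.1 FPKM. HNF4A, the nuclear receptor of gut and liver, had 27.9, 38.8 and 50.8 FPKM, with no overlap with VIL1 above it. CDX2, the homeobox factor that specifies intestine, had 8.44, 21.5 and 24.9 FPKM, and APOB, the core protein of chylomicrons, had 20.3, 20.5 and 13.1. Those last 2 overlap, so their order is not settled by these libraries, and CDX2 varied more than APOB, being low in untreated 1 only. Bulk RNA cannot tell a gene expressed weakly in all cells from a gene expressed in few of them.

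**Figure D1:**
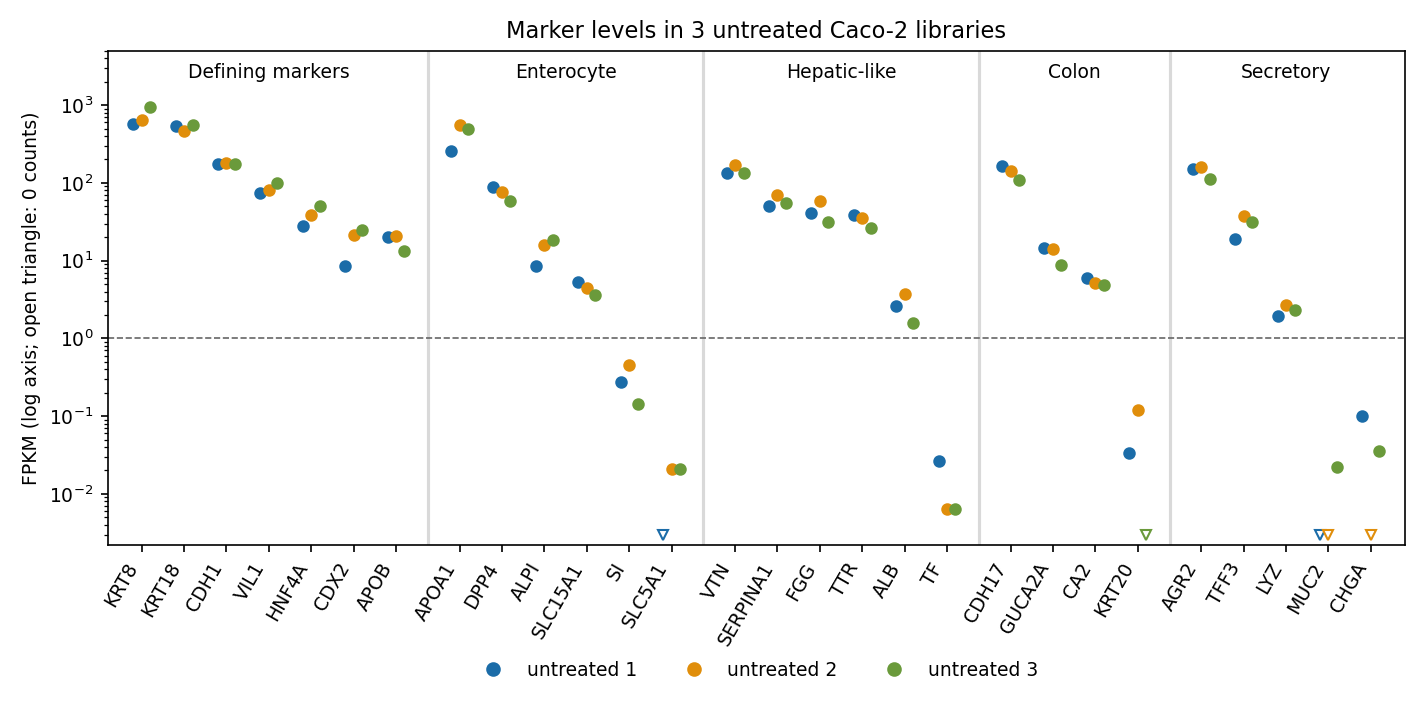
FPKM of selected genes in each of the 3 untreated libraries (log axis, 1 point per library, open triangles for 0 counts, dashed line at 1 FPKM), grouped as defining markers, enterocyte, hepatic-like, colon and secretory genes. All 7 defining markers lie above the line, while SI, SLC5A1, TF, KRT20, MUC2 and CHGA lie below it in every library.

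Among nuclear protein-coding genes, EEF1A1, the factor that brings aminoacyl-tRNA to the ribosome, was the most abundant by mean, with 2037, 1654 and 1922 FPKM. FTL, the ferritin light chain, followed with 1269, 1885 and 1786, and ACTB, cytoplasmic actin, with 1743, 1460.1 and 1320.3; the ranges of these 3 genes overlap. Of the 30 highest genes, 9 encode ribosomal proteins by name. Others have roles outside protein synthesis and the cytoskeleton. GSTP1, a glutathione transferase, had 801, 879.7 and 726 FPKM and ranked 6. DKK1, a secreted inhibitor of Wnt signalling, had 810.2, 626 and 800.3 FPKM and ranked 9. SLC2A3, a high-affinity glucose transporter, had 707, 539 and 622 FPKM. FN1, the matrix protein fibronectin, had 598, 501 and 492 FPKM. APOE and APOA1, which encode lipoprotein components, closed the top 30 along with RPL41, with 249, 524 and 579.6 and 258, 554 and 493 FPKM; both were lowest in untreated 1.

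Counts on the mitochondrial chromosome differed between libraries, at 4.16%, 7.48% and 7.01% of the total. MT-CO1, a subunit of cytochrome oxidase, was highest among its genes with 11018, 15392 and 12520.4 FPKM, and MT-CO3 had 4695, 9281 and 10603. The 10 highest genes of any kind took 8.18% of counts, the 100 highest 20.2% and the 1000 highest 50.5%, as means of the 3 libraries. Without mitochondrial genes the share of the top 10 was 5.22%. The mitochondrial ribosomal RNA MT-RNR2 had 3692, 4376 and 4784 FPKM. Among nuclear non-coding genes of at least 200 bases, the 10 with the highest mean were all pseudogenes, led by RPS2P5 with 594, 706 and 635 FPKM. RPS2, its parent by name, had 523, 719 and 909 FPKM. The sources used here do not say how reads matching several genes were assigned, so the level of such a copy is uncertain. Among long non-coding RNAs, a table made after values were seen, NORAD had the highest mean with 77.1, 63.5 and 70.002 FPKM, a range that overlaps that of LRRC75A-AS1 at 63.7, 62.5 and 72.4, while the nuclear RNAs MALAT1 and NEAT1 had 12.6, 13.3 and 13.8 and 2.75, 2.92 and 3.65.

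**Figure D2:**
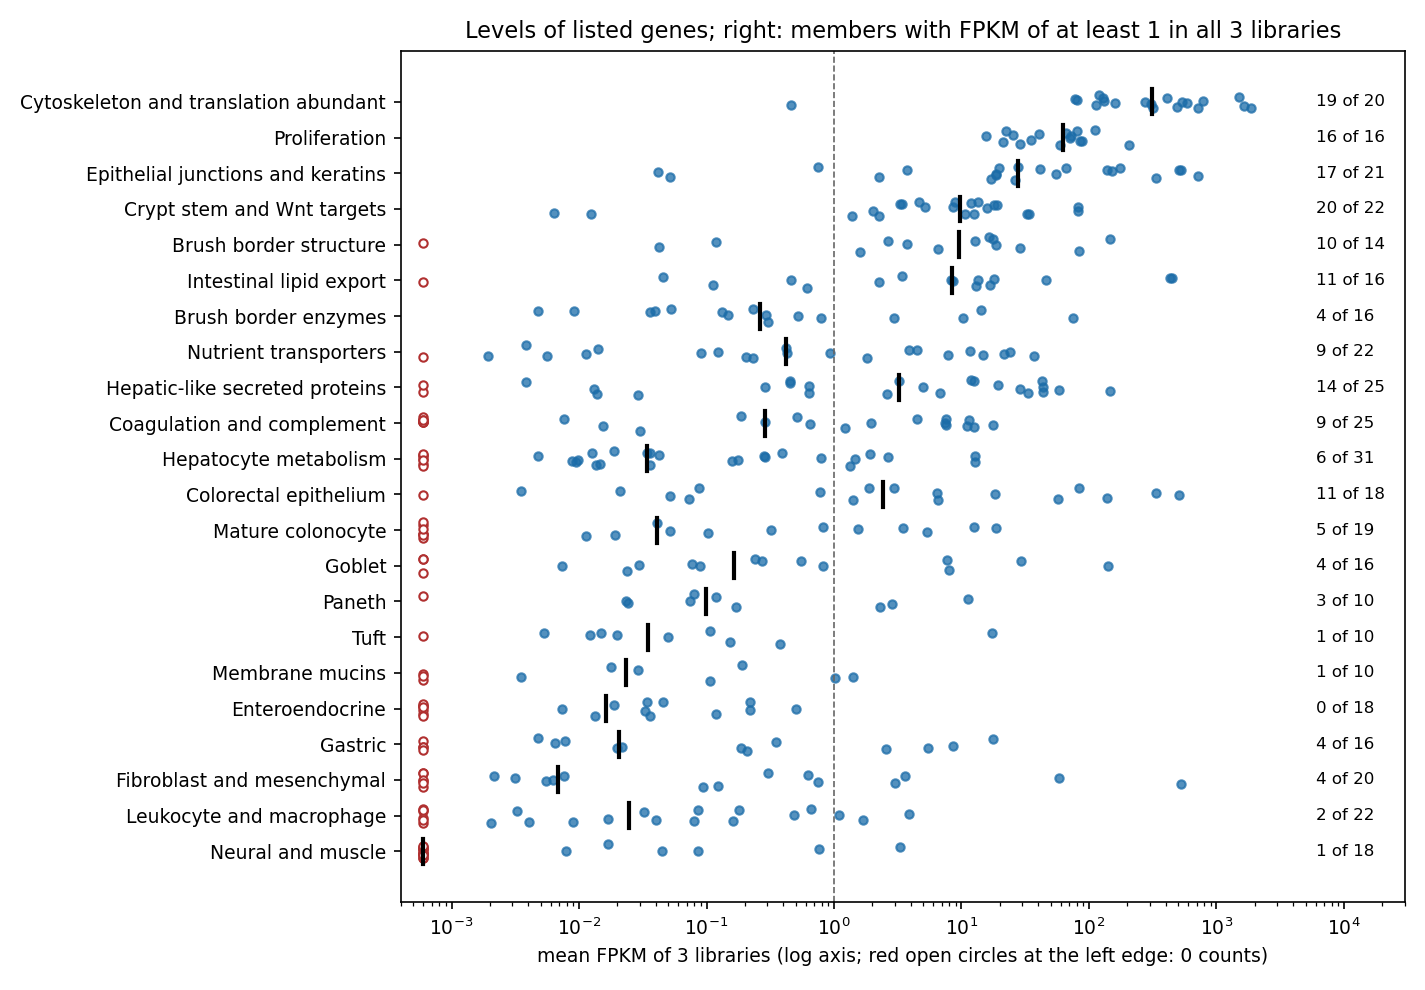
Mean FPKM of every member of 22 gene lists over the 3 untreated libraries (log axis, 1 point per gene, black bar for the list's median, red open circles for genes with 0 counts, dashed line at 1 FPKM), with the number detected at the right. Proliferation genes all lie above the line (16 of 16), and no enteroendocrine gene is detected (0 of 18).

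The enterocyte programme was present in part. Across its 4 lists, 34 of 68 members were detected, near the 50.1% of all protein-coding genes, and the count was 35 without untreated 1. The lists differed: 10 of 14 brush border structure genes and 11 of 16 lipid export genes were detected. Of genes listed as brush border enzymes, 4 of 16 were detected, and of nutrient transporters 9 of 22. Median levels were 9.65, 8.41, 0.261 and 0.423 FPKM in that order, beside 1.35 over all protein-coding genes.

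Most genes of the microvillus scaffold were detected. EZR, the gene of ezrin, which links actin to the membrane, had 148, 129 and 163 FPKM, followed with no overlap by VIL1. PDZK1, a scaffold of apical transporters, had 28.1, 30.8 and 27.9, and CDHR5, a protocadherin that links microvillus tips, had 14.1, 18.8 and 23.4. Its partner CDHR2 stood at 0.0468, 0.136 and 0.177, and MYO7B, a motor of the same tip complex, at 0, 0.0317 and 0.0947. MYO1A, the brush border myosin, had 3.22, 4.38 and 3.66 FPKM.

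Of the enzymes on that list, DPP4, a dipeptidyl peptidase, stood alone at 88.1, 77.4 and 58.5 FPKM. ALPI, intestinal alkaline phosphatase, had 8.54, 15.8 and 18.6, and the carboxylesterase CES2 had 8.90, 9.91 and 11.7. MEP1A, a meprin subunit, was the fourth detected enzyme with 2.90, 3.54 and 2.44. Disaccharidases were low: SI, the gene of sucrase-isomaltase and a usual mark of differentiated Caco-2 cells, had 0.275, 0.454 and 0.145 FPKM, from 27, 50 and 16 counts. LCT, lactase, had 0.152, 0.212 and 0.329, and MGAM, maltase-glucoamylase, had 0.0349, 0.0570 and 0.0155. ANPEP, aminopeptidase N, had 0.116, 0.435 and 0.354.

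Transporters of iron and amino acids led the absorptive set. SLC40A1, the iron exporter ferroportin, had 42.6, 32.7 and 36.8 FPKM, and SLC11A2, the iron importer DMT1, had 24.8, 21.2 and 18.3. SLC1A1, a glutamate transporter, had 28.2, 25.1 and 19.3. SLC15A1, the peptide transporter PEPT1, had 5.38, 4.51 and 3.63, and NPC1L1, the cholesterol transporter, had 2.72, 4.19 and 4.74. Sugar uptake genes of the small intestine were close to 0: SLC5A1, the sodium-glucose transporter SGLT1, had 0, 2 and 2 counts, and the fructose transporter SLC2A5 had 0.131, 0.09997 and 0.141 FPKM. SLC10A2, the ileal bile acid transporter, was silent.

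Lipid export had both abundant and silent members. Beside APOE and APOA1, APOC3, an inhibitor of lipoprotein lipase, had 38.3, 53.9 and 46.9 FPKM. DGAT1 and DGAT2, which complete triglyceride synthesis, had 11.4, 19.3 and 19.8 and 11.7, 14.4 and 14.3. FABP1, the liver-type fatty acid binding protein, had 5.35, 7.49 and 12.02, whereas FABP2, the intestinal type, was silent, which allows up to 0.0233 FPKM. MTTP, which loads lipid onto apolipoprotein B, had 0.0464, 0.186 and 0.103 FPKM from 4, 18 and 10 counts, with APOB above it in every library.

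In the hepatic programme, 29 of 81 members were detected (30 without untreated 1), beside 50.1% of all protein-coding genes. Of the 81, 17 were silent (21.0%), near the 21.6% of all protein-coding genes. Of 25 secreted plasma proteins, 14 were detected and 2 were silent; of 25 coagulation and complement genes, 9 and 8; of 31 genes of hepatocyte metabolism, 6 and 7. Their medians were 3.26, 0.288 and 0.0343 FPKM, and the differences between the 3 lists were not tested.

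VTN, the gene of vitronectin, led the plasma proteins with 135, 168 and 134 FPKM, above the next gene with no overlap. SERPINA1, the gene of alpha-1-antitrypsin, had 51.04, 69.5 and 55.1. The 3 fibrinogen chains were all detected: FGG had 40.9, 58.3 and 31.8 FPKM, FGA 27.2, 39.2 and 19.98 and FGB 9.34, 18.1 and 9.91. RBP4, the retinol carrier, had 38.8, 52.8 and 38.1, APOH 45.2, 52.7 and 30.9 and TTR, transthyretin, 38.3, 35.7 and 26.4. Untreated 2 held the highest value for 13 of the 14 detected genes, and neighbours in their order overlapped in 12 of 13 pairs. Albumin and its fetal relative were lower but detected, with 2.60, 3.71 and 1.56 FPKM for ALB and 2.38, 5.46 and 1.93 for AFP. TF, transferrin, had 11, 3 and 3 counts, HP, haptoglobin, had 1, 0 and 0, and PLG, plasminogen, and FETUB were silent.

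Among clotting and complement factors, SERPINF2, the inhibitor of plasmin, had 10.3, 21.1 and 21.9 FPKM, and F2, prothrombin, had 8.30, 16.2 and 13.2. C3 of complement had 10.6, 11.03 and 11.5. F9, F11 and F13B were silent, as were the terminal complement genes C6, C8A, C8B and C9. In hepatocyte metabolism, CYP27A1, a sterol hydroxylase, had 11.9, 13.8 and 12.5 FPKM and ASS1, argininosuccinate synthase, 12.4, 11.7 and 14.1. OTC of the urea cycle, G6PC of gluconeogenesis, ADH1A, ADH1B, ADH1C, CYP8B1 and CYP3A4 were silent.

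All 32 listed gut and liver transcription factors had at least 1 count, and 20 were detected (62.5%, beside 50.1% of all protein-coding genes). FOXA1, a pioneer factor, had 49.4, 70.4 and 74.1 FPKM and GATA6 58.4, 54.03 and 61.2, and the ranges of these 2 leading genes overlap. FOXA2 had 8.78, 13.9 and 21.5 and CEBPA, a factor of hepatocytes and adipocytes, 3.76, 12.4 and 22.03. ISX, an intestinal homeobox factor, had 4.48, 4.84 and 3.78. CDX1, the relative of CDX2, had 0, 0 and 2 counts, and the xenobiotic receptor NR1I2 had 1 count in all 3 libraries together. Of 39 HOX genes, which record position along the body axis, 13 were detected (33.3%, beside 50.1% of all protein-coding genes). Detected were 6 of 11 in cluster A, 2 of 10 in cluster B, 5 of 9 in cluster C and 0 of 9 in cluster D. HOXB7 led with 25.2, 18.1 and 18.5 FPKM. HOXB13, a marker of the hindgut, had 1.10, 1.98 and 3.59. HOXD levels summed to 0.114, 0.333 and 0.058 FPKM over all 9 genes.

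Of 18 genes shared by colorectal epithelium, 11 were detected and 1 was silent, and of 19 mature colonocyte genes, 5 were detected and 7 were silent. Together the colon programme gave 16 of 36, beside 50.1% of all protein-coding genes, and the difference between its 2 lists was not tested. Of the 36, 8 were silent (22.2%), near the 21.6% of all protein-coding genes. EPCAM, an adhesion protein of epithelia, had 400.0, 317 and 290.3 FPKM, KRT19 447, 517 and 572, CDH17, the intestinal cadherin, 163, 144 and 109 and TSPAN8 70.4, 51.2 and 51.4. SLC26A2, a sulfate transporter, had 20.5, 21.1 and 14.5, GUCA2A, which encodes guanylin, 14.6, 14.1 and 8.89 and CA2, a carbonic anhydrase, 5.99, 5.15 and 4.90. SLC26A3, the chloride exchanger of surface colonocytes, had 4, 1 and 2 counts, KRT20 had 1, 4 and 0, and LGALS4 had 3, 7 and 2. CA1, CA4, AQP8, CLCA4 and the colon antigen GPA33 were silent. PHGR1 differed most between libraries among the detected genes of this set, with 1.20, 3.56 and 14.5 FPKM.

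The secretory lists hold goblet, Paneth, enteroendocrine and tuft genes and, beyond these lineages, membrane mucins. They gave 9 of 64 detected members (10 without untreated 1), a share of 14.1% beside 50.1% of all protein-coding genes. Silent members were 15 of 64 (23.4%), near the 21.6% of all protein-coding genes. The protein-folding enzyme AGR2 had 150.4, 159 and 112 FPKM and the trefoil peptide TFF3 18.8, 37.2 and 31.4, both goblet genes, while MUC2, the goblet mucin, had 0, 0 and 5 counts. ATOH1, the factor that commits cells to the secretory fate, was silent. Paneth genes gave 3 of 10, with 11.6, 14.1 and 7.95 FPKM for the phospholipase PLA2G2A and 1.95, 2.66 and 2.33 for lysozyme, LYZ; the defensin DEFA5 was silent. Of 18 enteroendocrine genes, 0 reached 1 FPKM, and NEUROG3, GCG, PYY and SST were silent. Of 10 tuft genes, the cytokine receptor IL17RB was detected at 18.6, 17.9 and 15.8 FPKM, while POU2F3, TRPM5 and DCLK1 were each under 0.1 FPKM in every library. Membrane mucins gave 1 of 10, MUC13, at 1.18, 1.90 and 1.14.

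The crypt and Wnt target list had the largest detected share of the gut programmes, 20 of 22, with a median of 9.78 FPKM. Over all protein-coding genes, 50.1% were detected and the median was 1.35 FPKM. SP5 had 51.4, 78.98 and 118 FPKM and CCND1, cyclin D1, 87.2, 70.4 and 88.6. The stem cell receptor LGR5 had 14.99, 10.5 and 9.99, SOX9 30.3, 33.5 and 34.3 and AXIN2, a feedback inhibitor of the pathway, 11.6, 10.8 and 17.8. ASCL2, a stem cell factor, ranged most among detected members, at 3.62, 9.78 and 40.2 FPKM. OLFM4 and APCDD1 were the 2 members not detected, with 0, 0 and 1 and with 0, 0 and 4 counts. All 16 proliferation genes were detected, at a median of 62.8 FPKM. PCNA, the sliding clamp of replication, had 243, 199 and 179, and MKI67, of dividing cells, had 28.7, 29.3 and 28.7, one of the closest sets of 3 values among the listed genes.

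Of 22 oncofetal and cancer-testis genes, 10 were detected and 8 were silent, beside 50.1% and 21.6% of all protein-coding genes. GPC3, a glypican, had 169, 165 and 114 FPKM, the imprinted gene PEG10 157, 146 and 123 and the RNA-binding protein IGF2BP1 53.2, 60.1 and 76.5. The testis antigens MAGEA1, MAGEA3, MAGEA4, CTAG2 and PRAME were silent. In drug metabolism and efflux, 20 of 30 members were detected (66.7%, beside 50.1% of all protein-coding genes). NQO1, a quinone reductase, had 122, 107 and 106 FPKM and the efflux pumps ABCC2 and ABCB1, the latter P-glycoprotein, had 34.1, 32.997 and 25.5 and 7.60, 6.15 and 4.95. CYP1A1 had 9.88, 17.4 and 13.2 and CYP3A5 2.70, 1.82 and 1.52, while CYP3A4, the main drug-metabolising cytochrome P450 of liver and small intestine, and GSTM1 were silent.

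Markers of other cell types were mostly at or near 0. Over 8 lists of gastric, pancreatic, squamous, mesenchymal, leukocyte, endothelial, neural or muscle, and erythroid genes, 16 of 132 members were detected and 62 were silent. These shares were 12.1% and 47.0%, beside 50.1% and 21.6% of all protein-coding genes. The silent share ran from 25% of gastric, 27.3% of leukocyte and 30% of mesenchymal genes to 75% of pancreatic genes. Leukocyte genes gave 2 of 22, CD14 at 3.12, 4.67 and 3.74 FPKM and AIF1 at 2.40, 1.49 and 1.18; the remaining 20 summed to 2.48, 2.82 and 3.26 FPKM, PTPRC, which encodes CD45, had 1 count in all, and MS4A1 and CD33 were silent. Mesenchymal genes gave 4 of 20: FN1, TAGLN at 58.5, 38.8 and 76.8, PDGFRA at 4.34, 3.56 and 2.99 and COL1A1 at 2.01, 3.61 and 3.39. VIM, the intermediate filament of mesenchyme, had 0.0850, 0.0973 and 0.0970 FPKM, and COL1A2, DCN, TWIST1 and ZEB2 were silent. FN1 is also made by hepatocytes and many carcinoma lines. Gastric genes gave 4 of 16, among them SOX2 at 13.003, 14.9 and 25.02 FPKM, TFF1 at 11.5, 8.30 and 6.05 and PGC, a pepsinogen, at 4.95, 4.87 and 6.53, while ATP4B, GKN1 and GKN2 were silent. KRT10 of the squamous list had 11.1, 5.31 and 11.8 FPKM, and 77.9% of its span lies opposite TMEM99, so with an unstated strand setting its reads cannot be assigned with certainty.

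Several gene families were silent in all or nearly all members, beside 21.6% of all protein-coding genes. Of 386 olfactory receptors, 369 had 0 counts and 0 were detected; the highest, OR2I1P, had 0.747, 0.790 and 0.549 FPKM. All 14 interferon alpha and omega genes were silent, as were 25 of 26 MAGE A, B and C genes, 36 of 39 beta-defensins and 86 of 94 keratin-associated proteins. Of 55 keratins, 29 were silent, 5 were detected and the others had counts without being detected. Housekeeping families lay at the other end, with 0 of 78 mitochondrial ribosomal proteins and 0 of 47 complex I genes silent. Families were defined by name patterns after values were seen. The handling of reads matching several genes is not given, and its part in the 0 counts of families with similar members was not tested.

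**Figure D3:**
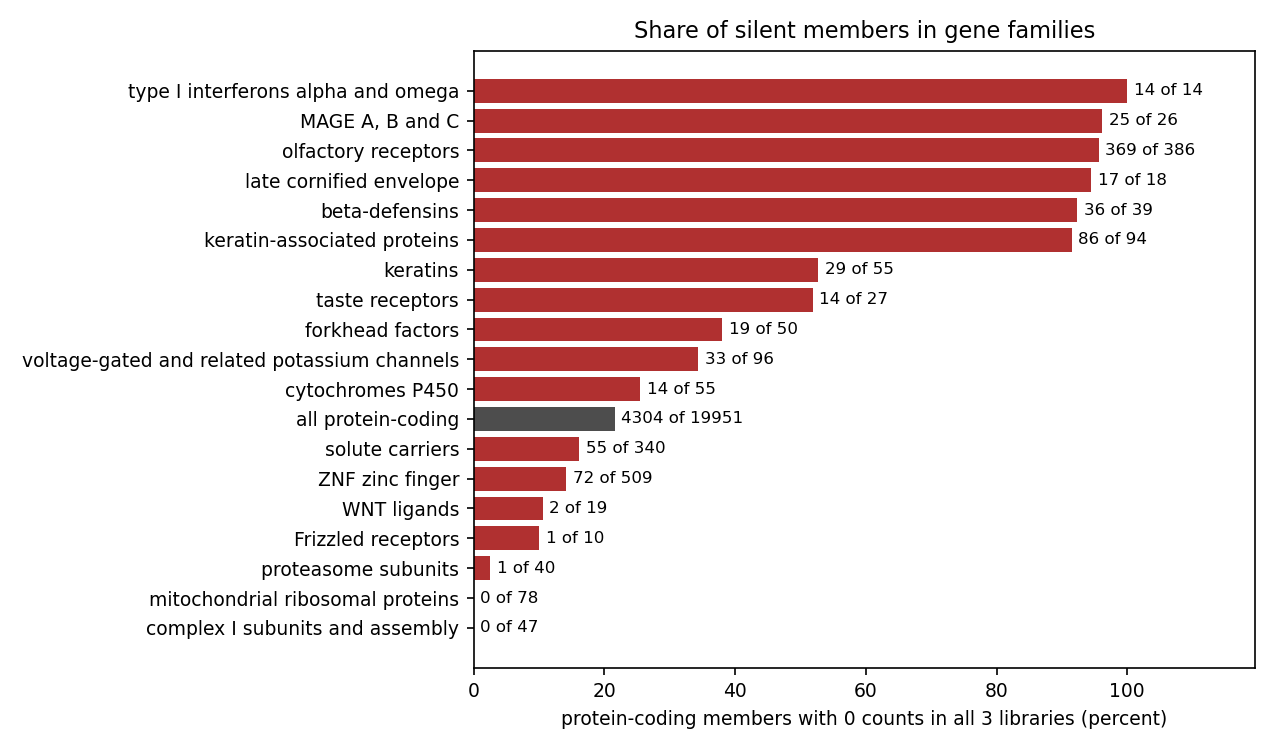
Percent of protein-coding members with 0 counts in all 3 untreated libraries, by gene family (bars, with counts at the right; the dark bar is all protein-coding genes). The dark bar stands at 21.6%, olfactory receptors at 95.6% and complex I genes at 0%.

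Some low values belong to genes that lie inside another gene on the same strand. EIF4A1, a translation factor of the abundant set, had 0.483, 0.461 and 0.439 FPKM, and 95.4% of its span lies inside SENP3-EIF4A1. ALDOA, the glycolytic aldolase, had 0.0480, 0.911 and 0.923 FPKM and lies inside AC093512.2 over 99.4% of its span, while 16 of 19 glycolysis genes were detected. CD68 was silent and lies over 96.6% inside AC016876.2. Of 999 protein-coding genes at least 90% inside a same-strand protein-coding gene, 27.3% were silent and 30.4% detected, against 21.3% and 51.1% of the 18952 others. The part of read assignment in these values was not tested.

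The libraries were then compared with each other on CPM scaled by TMM, among 10889 genes with a mean of at least 5 CPM. Untreated 3 was at least 2-fold above untreated 1 for 1330 genes (12.2%) and below for 80 (0.735%). At a 1.5-fold difference, the counts for this pair were 2512 above and 1322 below. With total counts in place of TMM, genes at least 2-fold lower numbered 140 for this pair and 54 for untreated 3 against untreated 2. Untreated 2 was above untreated 1 for 523 (4.8%) and below for 30 (0.276%), and untreated 3 was above untreated 2 for 220 (2.02%) and below for 35 (0.321%). These counts compare single libraries. Untreated 2 held the middle value for 63.6% of genes. The highest value fell in untreated 1 for 45.3% of genes and in untreated 3 for 38.5%. At any size of difference, 5116 of the 10889 genes were higher in untreated 3 than in untreated 1. The median SD of log2 CPM over the 3 libraries was 0.262, and the common biological coefficient of variation was 0.257. As a check for a library deposited more than once, the counts of each pair were set against counting noise, with reads taken as independent: the mean chi-square per gene was 46.2 (untreated 2 and 1), 92.4 (3 and 1) and 31.5 (3 and 2), against 1 for repeats of the same library. The check concerns only a library deposited more than once and cannot show whether the 3 came from separate cultures. Each was counted as 1 library.

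Among genes with a mean of at least 20 CPM, the 12 with the largest SD were all highest in untreated 3 and lowest in untreated 1. TMEM141, a small membrane protein, had 3.53, 10.1 and 54.03 CPM, and PABPN1, the nuclear poly(A)-binding protein, 6.69, 19.7 and 95.4. ASCL2 had 6.75, 18.3 and 75.5 CPM, the lysosomal protease CTSD 25.05, 72.6 and 198 and the growth factor IGF2 19.3, 66.4 and 127. FTH1, the ferritin heavy chain, had 67.6, 174 and 464 CPM, a 6.85-fold range, whereas its partner FTL had 1123, 1670 and 1591. Of the FTH1 span, 73.0% lies opposite BEST1, so with an unstated strand setting FTH1 reads cannot be assigned with certainty. Of the 12 genes, only FTH1 was looked up singly for overlap with other genes. The part of read assignment in the ranges of the others, PABPN1 and IGF2 included, was not tested. At the other extreme, picked after values were seen among genes with a mean of at least 100 CPM, WAC had 272, 271 and 271 CPM and VCP, an ATPase of protein turnover, 582, 576 and 579.5.

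**Figure D4:**
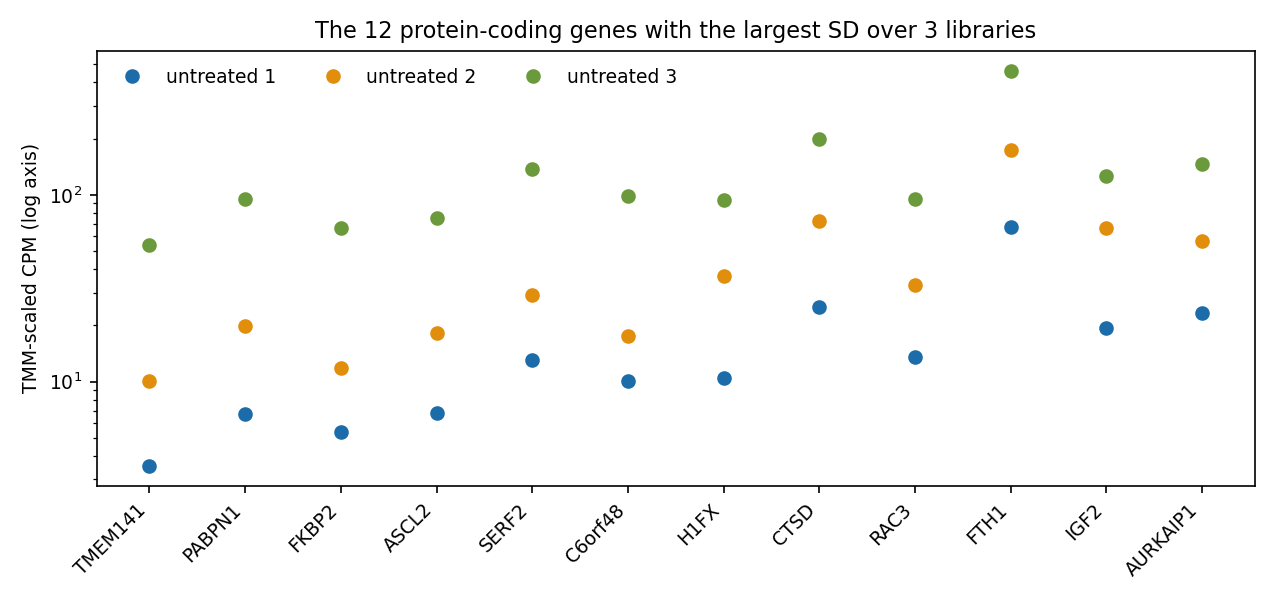
TMM-scaled CPM of the 12 protein-coding genes with the largest SD of log2 CPM over the 3 untreated libraries (log axis, 1 point per library). In each gene untreated 3 is highest and untreated 1 lowest, from TMEM141 (3.53, 10.1 and 54.0) to AURKAIP1 (23.2, 56.4 and 146).

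Gene lists shifted unequally between libraries. The median log2 difference of untreated 3 minus untreated 1 was -0.05 over all genes. It was 1.48 for the 13 mitochondrial protein-coding genes, 0.70 for 11 lipid export genes and 0.64 for 9 coagulation and complement genes, but -0.32 for 14 secreted plasma proteins and -0.31 for 16 proliferation genes. Between untreated 2 and untreated 1 the plasma proteins had a median of 0.51, so their level was highest in untreated 2.

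The differences moved with gene properties, which were examined after values were seen. In 10 groups by gene length, the median log2 difference of untreated 3 minus untreated 1 was 0.36 in the shortest and -0.26 in the longest. By GC content of the promoter, known for 8541 of 10357 genes (82.5%), it was -0.24 in the lowest group and 0.25 in the highest. Across genes, which share the same libraries and are no independent replicates, Spearman's rho was -0.225 with length and 0.163 with promoter GC. Of the 12 most variable genes, 8 were no longer than 2338 bases, the upper bound of the group of the shortest genes. The part of length or GC in any single gene's difference was not tested.

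**Figure D5:**
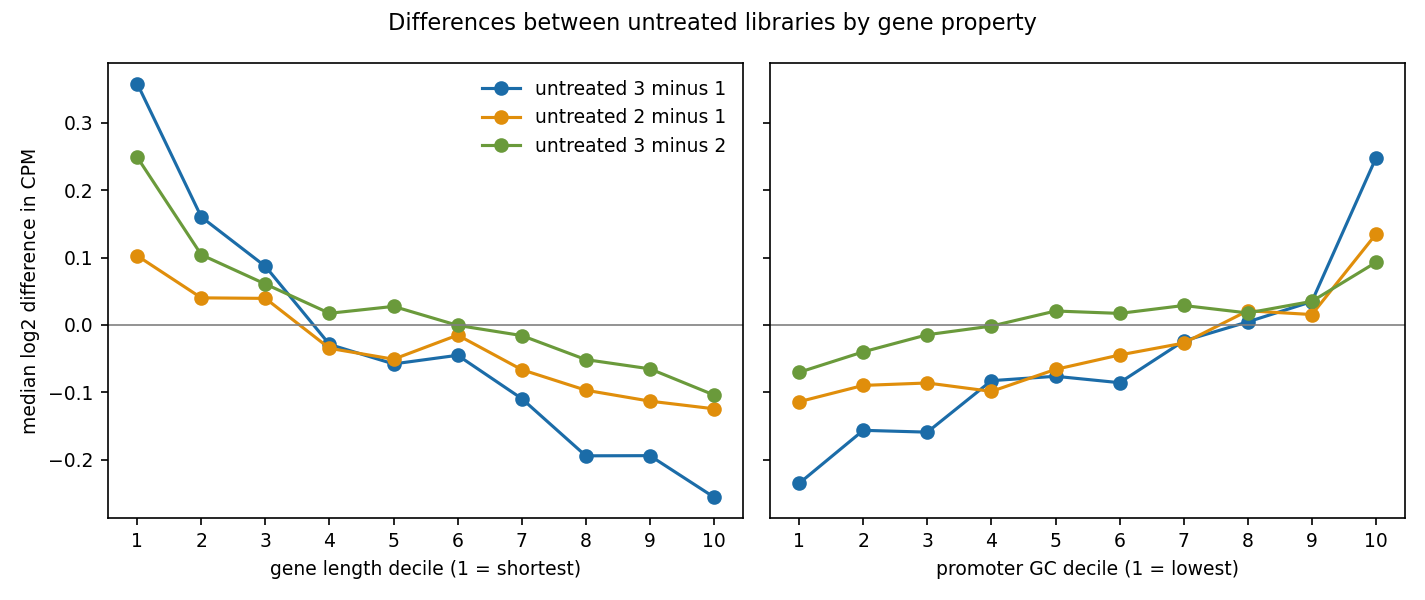
Median log2 difference in CPM for each pair of untreated libraries, in 10 groups of near-equal size by gene length (left) and by promoter GC content (right). For untreated 3 minus untreated 1 the line goes from 0.36 to -0.26 with length and from -0.24 to 0.25 with promoter GC.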

How the data were processed

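RNA of untreated Caco-2 cells was read in 3 libraries. Gene counts and FPKM values were deposited by the authors for 58735 genes on GRCh38; per the submitters' processing notes, CASAVA, HISAT2 and featureCounts were used. The sources used here give neither versions nor the strand setting, the library kit or the handling of reads matching several genes. Each deposited FPKM value is its count over the gene's length and a column constant (largest relative deviation 2.765e-08), so FPKM and counts hold the same reads. The constants were 1.02, 1.03 and 0.982 of the column totals. How the authors set these constants was not examined, so treated libraries may have entered them. A total of 6 columns matched no sample and were not used.

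Levels and shares were computed in Python 3.11.15 with pandas 2.3.3. Libraries were compared on log2(CPM + 0.1) with TMM factors of edgeR 4.0.16 in R 4.3.3, at a mean of at least 5 CPM and a 2-fold difference; the coefficient of variation is edgeR's common value for an intercept-only design. With 1 group and no contrast, no comparison was tested, so levels carry only the spread of 3 libraries, and totals of 15608937 to 18324599 counts set the limit for silent genes (3 counts). The scripts were tested on simulated data. The 34 gene lists (606 symbols, all in the table) and the description of this line were chosen with earlier results of these data known. For 2 symbols with several identifiers, the larger count was used.

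Genes were named by a rule: the 7 markers, the 30 highest protein-coding and 10 highest non-coding genes, up to 6 highest and 4 lowest members of each list, the 12 most variable genes, and members needed to complete a comparison; other genes named here were chosen after their values were seen. Alternatives were other FPKM thresholds, TPM computed from counts, other scalings (DESeq2 1.42.0 size factors, total counts, no mitochondrial genes), other filters and folds, and each library left out. GC content of promoters comes from a RefSeq table of GRCh38.p14, matched by Ensembl identifier and, where that gave no value, by symbol. Some genes and a search for promoter letters are not reported here.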

Additional observations from a re-analysis of the deposited data

How the results depend on the processing

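The counts of detected genes depend on the threshold. At 5 FPKM, 6013 protein-coding genes were detected, with 19 of the hepatic, 8 of the colon, 4 of the secretory and 12 of the crypt lists. The secretory count was 20 at 0.1 FPKM and 14 at a TPM of at least 1. Without mitochondrial genes the top 10, 100 and 1000 genes held 5.22%, 16.0% and 47.5% of counts, and as summed TPM 19.9%, 36.4% and 63.0%. Genes at least 2-fold apart (untreated 2 and 1, 3 and 1, 3 and 2) numbered 1078, 2152 and 614 at a mean of at least 1 CPM, 7010, 8113 and 5199 with no filter and a prior count of 1, and 1959, 3834 and 1261 at 1.5-fold. Among them, the share higher in untreated 3 than in untreated 2 was 86.3%, then 67.3% at 1 CPM, 73.6% at 1.5-fold and 49.9% with no filter and the other prior, which changed together. For untreated 3 and 1 it was 94.3%, then 87.8%, 65.5% and 58.8%, and for untreated 2 and 1 94.6%, then 88.1%, 80.04% and 56.8%. The coefficient of variation ranged from 0.187 to 0.338 as each library was left out. The other alternatives, 57 of 82 in all, stayed within 1.5 times the count, or within 1 SD of a share, including the summed counts of both directions under DESeq2 size factors and total counts; with total counts the genes lower in untreated 3 numbered 140 in place of 80 against untreated 1 and 54 in place of 35 against untreated 2. For single lists, 198 of 238 did. Leaving out 1 of 3 libraries cannot move a mean beyond 1 SD, so that check says nothing about single genes or the shares of the top genes. The shares with 1 library left out are among the 57 and stayed within 1 SD by construction. Depth limits silent genes to 3 counts in 51396320. No paired analysis was possible because only 1 group was analysed.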
